A study of Mus musculus with 47 samples.

Results

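Bulk RNA-seq of the hypothalamus on Day 1 after a single intracerebroventricular (icv) injection compared 10 mice given fibroblast growth factor 1 (FGF1) with 4 mice given vehicle. The 14 libraries were chosen by the treatment and the day in their labels, out of 47 libraries in the whole series, and 14221 genes were tested. All 14 mice were male, 11 weeks old and of the ob/ob strain, which carries the Lep ob allele, lacks functional leptin and becomes obese and hyperglycemic. Each FGF1-treated mouse had received 3 µg of recombinant human FGF1 through a cannula in the lateral ventricle, and each library held the RNA of 1 mouse. The 4 vehicle-treated mice were pair-fed to the FGF1 group and are labelled non-diabetic, while the labels of the FGF1-treated mice name no glycemic status, so any difference in glycemic status and the treatment cannot be told apart. The paper, unlike this label, states that mice not considered diabetic by their blood glucose were left out. It also states that groups were matched for blood glucose and body weight. The tissue was a hypothalamic punch from 1 coronal block of the brain and held mixed cell types, so a lower level of a gene can mean fewer cells of a type or less RNA per cell, and bulk counts cannot tell these apart. Lep itself was not analysed here.

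FGF1 binds all FGF receptors together with heparan sulfate chains on the cell surface, and the receptors signal mainly through the RAS-ERK kinase cascade. That cascade induces ETS and AP-1 transcription factors along with its own inhibitors, the Sprouty proteins and the dual-specificity phosphatases. In the hypothalamus, FGF receptors are found on astrocytes, on the tanycytes and ependymal cells that line the third ventricle, on cells of the oligodendrocyte lineage and on neurons, among them the AgRP and POMC neurons that regulate feeding. Astrocytes respond to many stimuli by becoming reactive, a state in which they make more intermediate filaments, secreted inhibitors and cytoskeletal proteins.

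Levels are normalized counts (CPM after TMM scaling), and the values of vehicle-treated mice are given in the order of mice 27, 28, 29 and 30. The vehicle libraries held 37281555 to 42887789 counts. The FGF1 libraries held 1243280 to 47082403, with a median of 33965099. The lowest total was that of mouse 17, in which 1 count is worth 0.815 CPM and 539 genes were at 0, so its values of weakly expressed genes are coarse. The first principal component of the 500 most variable genes held 72.1% of their variance and placed the FGF1-treated mice between 3.4 and 18 and the vehicle-treated mice between -30.6 and -27.2. Libraries also differed in the median log2 level of the longest 10% of genes minus that of the shortest 10%, which ran from -0.27 to 0.21 with FGF1 and from -0.06 to 0.39 with vehicle. The values of 5 FGF1 libraries lay below those of every vehicle library, and vehicle mouse 28 lay above every FGF1 library. Each result was therefore also computed without these 6 libraries, in the remaining 5 FGF1 and 3 vehicle libraries, called the length subset here. Its FGF1 libraries are those of mice 17, 20, 23, 25 and 26, so it holds the shallow library of mouse 17 and leaves out mouse 22. The subset is not balanced in this measure, since its FGF1 libraries lie between 0.006 and 0.208 and its vehicle libraries at -0.057, 0.155 and -0.054. The median log2 FC of the shortest 10% of genes was 0.04 over all libraries and -0.09 in the subset, and that of the longest 10% was -0.08 and 0.04, so the difference by length turned over rather than vanished. Values in the subset therefore show how far a result moves with the libraries used and are not corrected values. They are given beside a list where its median moved by over 1.5 times and by more than 0.05 or where its calls changed in balance.

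**Figure D1:**
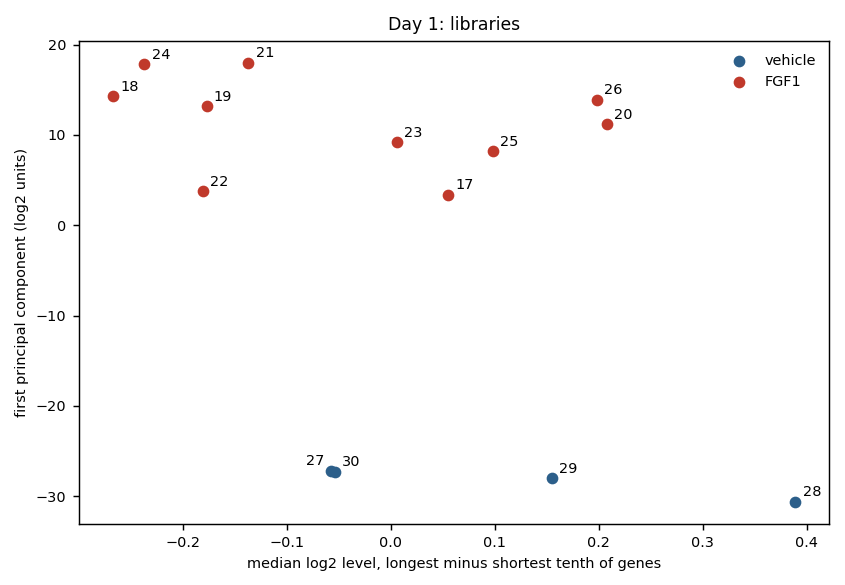
Each of the 14 libraries of Day 1 by the median log2 level of its longest minus its shortest 10% of genes (x axis) and by its first principal component over 500 genes (y axis, log2 units), with vehicle in blue and FGF1 in red. The vehicle libraries lie between -30.6 and -27.2 on the component and the FGF1 libraries between 3.4 and 18, and on the x axis vehicle mouse 28 stands farthest to the right at 0.39.

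Genes were called differentially expressed (DEGs) where the adjusted p was under 0.05 and the log2 fold change (log2 FC) of FGF1 over vehicle exceeded 0.5 in either direction, which held for 2776 of the 14221 genes, or 19.5%. Of all genes tested, 11.5% were higher and 8.05% were lower with FGF1. By size, 149 genes rose and 62 fell by over 4-fold, and 38 rose and 12 fell by over 8-fold. The groups did not overlap, with all FGF1 values above all vehicle values for 7.56% of all genes and below them for 6.81%. Among DEGs this held for 824 of the 1631 that were higher and 566 of the 1145 that were lower. The median log2 FC was 0.80 over the higher DEGs, -0.75 over the lower DEGs and 0.01 over all genes. The length subset gave 2522 DEGs, of which 1770 were shared, and 52.9% of them were higher.

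**Figure D2:**
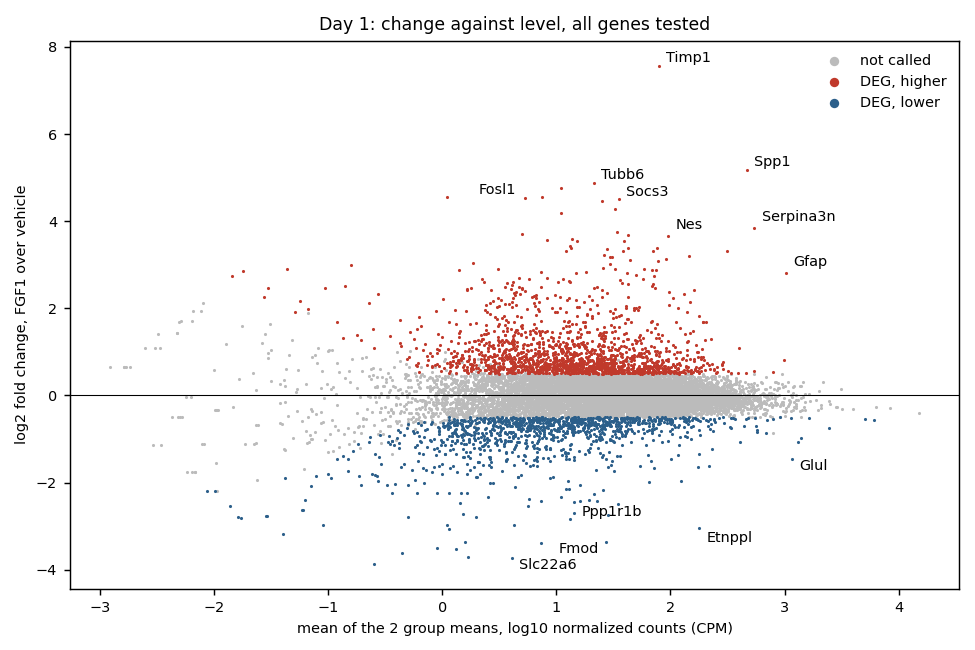
Each point is a gene, by its mean level over both groups of Day 1 (x axis, log10 CPM) and its log2 fold change of FGF1 over vehicle (y axis), with higher DEGs in red, lower DEGs in blue and other genes in grey (genes at 0 in all 14 libraries are not drawn). Timp1 at 7.57 and Spp1 at 5.18 lie highest among the labelled genes, and Slc22a6 at -3.73 and Fmod at -3.36 lie lowest.

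The 15 DEGs that rose most with groups that did not overlap, at a mean of at least 5 CPM, were Timp1, Spp1, Tubb6, Syt15, Ptgs2, Fosl1, Socs3, Hspb1, Itga5, Plau, Serpina3n, Flnc, Tnfaip2, Emp1 and Nes. Timp1, a secreted inhibitor of matrix metalloproteinases (GRCm38 chrX:20870166-20874735, plus strand), was at 0.934, 0.7905, 0.698 and 0.957 CPM with vehicle and at 61.1 to 307 CPM (median 142) with FGF1. Its lowest FGF1-treated mouse lay far above all vehicle-treated mice (log2 FC 7.57 ± 0.40 SE, adjusted p = 2.9e-20). Syt15, a synaptotagmin, was at 0.989, 0.536, 0.745 and 0.821 CPM with vehicle and at 10.6 to 25.4 CPM (median 22.5) with FGF1, again without overlap (log2 FC 4.76 ± 0.35 SE, adjusted p = 1.8e-15). The 15 that fell most by the same rule were Slc22a6, Myoc, Fmod, Etnppl, Lrrc74b, Ogn, Slc6a20a, Slc6a13, Ranbp3l, Heyl, Car14, Hist1h1c, Paqr6, Klhdc7a and Ppp1r1b. Etnppl, which breaks down phosphoethanolamine and is found in astrocytes, was at 321, 395, 302 and 257 CPM with vehicle and at 26.4 to 68.4 CPM (median 39.1) with FGF1, so the levels did not overlap (log2 FC -3.04 ± 0.13 SE, adjusted p = 7.2e-24). Car14, a membrane-bound carbonic anhydrase whose exons overlap Aph1a, lay at 24.3, 27.6, 22.8 and 22.5 CPM with vehicle and at 2.56 to 7.99 CPM (median 3.97) with FGF1 (log2 FC -2.45 ± 0.16 SE, adjusted p = 3.5e-17). Hist1h1c, a linker histone of a multigene family whose members can share reads, had 62.01, 39.1, 27.2 and 25.98 CPM with vehicle and 4.43 to 9.61 CPM (median 7.09) with FGF1 (log2 FC -2.43 ± 0.22 SE, adjusted p = 1.2e-12).

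Genes of the FGF system itself moved in both directions. Of the FGF receptors, ligands and co-receptors, 5 (18.5%) of the 27 measured members rose and 5 (18.5%) fell, with a median log2 FC of -0.16, against 11.5% and 8.05% of all genes. Fgfr1 was the one kinase receptor gene of the list that rose: 129.98, 104, 128 and 132 CPM with vehicle and 183 to 283 CPM (median 208) with FGF1, without overlap (log2 FC 0.87 ± 0.11 SE, adjusted p = 3.1e-09). Fgfr2 and Fgfr3 did not pass the thresholds, with overlapping levels (Fgfr2, log2 FC -0.39, adjusted p = 8.6e-04, and Fgfr3, log2 FC 0.05, adjusted p = 0.66). Fgfrl1, a receptor without a kinase domain, rose (log2 FC 1.52 ± 0.16 SE, adjusted p = 8.8e-11), as did Sdc1, a heparan sulfate proteoglycan that presents FGFs to their receptors (log2 FC 2.7 ± 0.24 SE, adjusted p = 1.2e-12), and Sdc4. Among the ligands, Fgf2 was at 14.6, 29.1, 18.4 and 13.5 CPM with vehicle and at 46.3 to 103 CPM (median 59.4) with FGF1, and no FGF1-treated mouse fell within the vehicle range (log2 FC 1.76 ± 0.17 SE, adjusted p = 3.8e-12). Fgf22, Fgf1 and Fgf14 fell, the first by 0.85 on the log2 scale (adjusted p = 7.3e-05), and so did the FGF-binding protein Fgfbp3 and the receptor partner Flrt1. The endogenous mouse gene Fgf1 is measured here, and the injected human protein is not.

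Targets and feedback inhibitors of the ERK cascade were mostly higher. Within ERK pathway feedback and targets, 21 (70%) of the 30 measured members rose and none fell (median log2 FC 0.8). Dusp6, the phosphatase that inactivates ERK in the cytoplasm, was at 13.8, 12.5, 13.8 and 13.1 CPM with vehicle and at 24.3 to 62.5 CPM (median 55.5) with FGF1. Mouse 22 held the lowest of these levels, which was still above every vehicle-treated mouse (log2 FC 1.97 ± 0.19 SE, adjusted p = 9.6e-12). Dusp5, its nuclear counterpart, was at 3.05, 1.81, 2.56 and 1.67 CPM with vehicle and at 10.05 to 38.4 CPM (median 21.7) with FGF1 (log2 FC 3.31 ± 0.29 SE, adjusted p = 4.4e-13). Of the Sprouty genes, Spry2 lay at 13.9, 16.9, 18.01 and 14.9 CPM with vehicle and at 42.9 to 67.5 CPM (median 56.8) with FGF1, with no overlap (log2 FC 1.85 ± 0.12 SE, adjusted p = 7.0e-17). Spry4 also rose (log2 FC 1.69 ± 0.16 SE, adjusted p = 5.8e-12), but mouse 22 at 26.98 CPM fell below vehicle mouse 29 at 28.02 CPM. Spry1 (log2 FC 0.74) and Spry3 (log2 FC 0.55) passed with overlapping groups, and Spry3 lost its call without vehicle mouse 27 (log2 FC 0.38), without vehicle mouse 28 (0.42) or without FGF1 mouse 26 (0.48). Epha2, an ephrin receptor induced by ERK, was at 1.59, 1.41, 1.47 and 1.64 CPM with vehicle and at 5.696 to 12.9 CPM (median 8.24) with FGF1 (log2 FC 2.46 ± 0.23 SE, adjusted p = 5.6e-12). The other members that rose were Spred1, Spred2, Spred3, Dusp7, Etv4, Etv5, Phlda1, Myc, Errfi1, Map2k2, Egr1 and Ier3, with Fosl1 and Ccnd1 described elsewhere.

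Most immediate early genes measured, AP-1 subunits among them, rose. For immediate early genes, 16 (61.5%) of the 26 measured members rose and 1 (3.85%) fell and the median log2 FC was 1.27. Fosl1, the AP-1 subunit FRA-1 (GRCm38 chr19:5447547-5455946, plus strand), was at 0.247, 0.254, 0.582 and 0.711 CPM with vehicle and at 3.79 to 17.3 CPM (median 9.35) with FGF1. All 10 FGF1-treated mice were above all vehicle-treated mice (log2 FC 4.54 ± 0.36 SE, adjusted p = 1.6e-14). Junb lay at 1.57, 0.508, 0.605 and 1.75 CPM with vehicle and at 2.44 to 12.5 CPM (median 3.59) with FGF1 (log2 FC 2.5 ± 0.43 SE, adjusted p = 6.5e-06), and its log2 FC was 1.28 in the length subset. Fos was at 16.7, 12.6, 17.4 and 10.7 CPM with vehicle and at 21.4 to 57.9 CPM (median 36.7) with FGF1, without overlap (log2 FC 1.39 ± 0.27 SE, adjusted p = 3.3e-05). Egr3, a zinc finger transcription factor, lay at 1.51, 1.67, 2.07 and 2.05 CPM with vehicle and at 4.42 to 18.4 CPM (median 12.5) with FGF1, lowest in mouse 22 (log2 FC 2.84 ± 0.52 SE, adjusted p = 1.4e-05). The orphan nuclear receptor gene Nr4a3 fell (log2 FC -0.79 ± 0.23 SE, adjusted p = 0.0038), with overlapping groups, and did not pass in the length subset (log2 FC -0.67). Arc, Jun, Ier2 and Gadd45b were among the others that rose. Fosl1 overlaps Ccdc85b, Dusp5 overlaps a locus named AC137853.2, Fgf2 overlaps Nudt6 and Junb overlaps Prdx2, each on the opposite strand, and the strand setting of the counting is not given in the sources used here.

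Ligands of the EGF receptor family moved apart from each other. Among EGF family ligands and receptors, 6 (37.5%) of the 16 measured members rose and 2 (12.5%) fell, at a median log2 FC of 0.13, or 0.30 in the length subset. Hbegf, a heparin-binding ligand, was at 12.7, 19.5, 16.6 and 16.8 CPM with vehicle and at 71.9 to 137 CPM (median 128) with FGF1. The groups lay far apart (log2 FC 2.88 ± 0.14 SE, adjusted p = 3.5e-22). Btc, the ligand betacellulin, was at 1.04, 1.33, 1.86 and 1.34 CPM with vehicle and at 5.98 to 8.49 CPM (median 7.07) with FGF1 (log2 FC 2.36 ± 0.24 SE, adjusted p = 2.2e-11). Egf went the other way, from 5.47, 7.42, 5.03 and 6.62 CPM with vehicle to 2.43 to 3.83 CPM (median 2.84) with FGF1, without overlap (log2 FC -1.07 ± 0.15 SE, adjusted p = 1.4e-07). Tgfa, Erbb2, Lrig1 and the EGF receptor inhibitor Errfi1 rose, and Nrg3 fell.

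**Figure D3:**
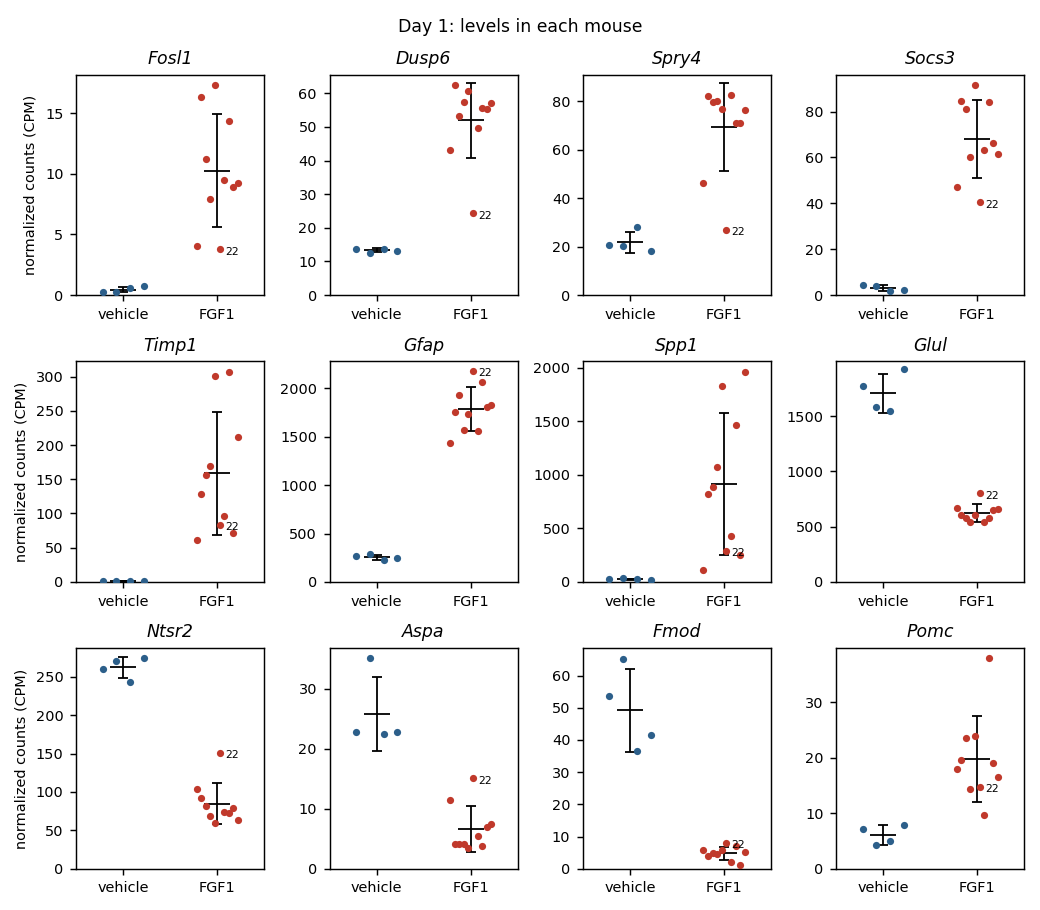
Levels of 12 genes in each mouse of Day 1 (y axes, CPM from 0), with the 4 vehicle-treated mice in blue, the 10 FGF1-treated mice in red, and bars for the mean and SD of each group. FGF1 mouse 22, marked 22, is lowest of the FGF1-treated mice for Dusp6 at 24.3 CPM and Spry4 at 26.98 CPM and highest for Gfap at 2182 CPM, and for Pomc the FGF1-treated mice start at 9.66 CPM, above the highest vehicle-treated mouse.

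Signalling through gp130 and STAT3 serves cytokines of the IL-6 family, and the leptin receptor uses the same transcription factor. Of the genes of the gp130 and STAT3 pathway, 13 (56.5%) of the 23 measured members rose and none fell, with a median log2 FC of 0.53. Socs3, the feedback inhibitor of this pathway (GRCm38 chr11:117966079-117970047, minus strand), was at 4.396, 3.75, 1.84 and 2.19 CPM with vehicle and at 40.5 to 91.7 CPM (median 64.7) with FGF1. The lowest FGF1-treated mouse stood well above the highest vehicle-treated mouse (log2 FC 4.5 ± 0.22 SE, adjusted p = 1.1e-21). Osmr, the receptor subunit for oncostatin M, lay at 5.96, 8.13, 7.42 and 6.73 CPM with vehicle and at 42.3 to 91.04 CPM (median 73.2) with FGF1 (log2 FC 3.31 ± 0.19 SE, adjusted p = 7.5e-19). Stat3 was at 98.6, 80.995, 88.1 and 97.8 CPM with vehicle and at 218 to 357 CPM (median 289) with FGF1, and again the groups did not overlap (log2 FC 1.69 ± 0.08 SE, adjusted p = 2.6e-21). The receptor subunits Il6st and Il6ra and the transcription factor genes Cebpb and Cebpd rose too. Stat3 and Stat5a overlap at their ends on opposite strands.

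The ob/ob mice lack leptin, so genes of the leptin and insulin pathways are given for their own levels. Lepr was at 5.88, 12.6, 5.14 and 5.197 CPM with vehicle, highest in mouse 28, and at 2.99 to 9.21 CPM (median 5.53) with FGF1. Its groups overlapped and it was not called (log2 FC -0.41 ± 0.22 SE, adjusted p = 0.12), and its log2 FC was 0.23 in the length subset, 0.0037 without vehicle mouse 28 and -0.55, past the thresholds, without FGF1 mouse 26. Ptpn2, a phosphatase that acts on STAT proteins, rose (log2 FC 0.67 ± 0.12 SE, adjusted p = 2.0e-05). Ptpn1, which dephosphorylates JAK2 and the insulin receptor, passed narrowly (log2 FC 0.55 ± 0.10 SE, adjusted p = 2.6e-05) and did not pass in the length subset (0.29), with DESeq2 (0.50) or without vehicle mouse 28 (0.47). Jak2 (log2 FC 0.15), Sh2b1 (0.49), Irs1 (0.18), Irs2 (0.41), Insr (-0.22), Stat5a (0.4) and Stat5b (0.46) were not called. Sh2b1 lay at the threshold and passed it in 6 of the fits that left out 1 mouse, FGF1 mouse 17, 20, 25 or 26 or vehicle mouse 27 or 30, with a log2 FC of up to 0.61, and Stat5a and Stat5b (0.56 each) passed without vehicle mouse 30.

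Emp1, an epithelial membrane protein and A2 reactive astrocyte marker, and Socs3 are shown with the 250 bases before a RefSeq start site, since of the 15 genes that rose most these held matches to the motifs searched. The windows lie at chr6:135362681-135362930 on the plus strand for Emp1 and at chr11:117969367-117969616 on the minus strand for Socs3. Capitals mark matches to TGANTCA, the AP-1 motif, or TTCNNNGAA, the STAT motif, on either strand, in RefSeq sequence of build GRCm38.p6 written 5′ to 3′ along the gene.
Emp1: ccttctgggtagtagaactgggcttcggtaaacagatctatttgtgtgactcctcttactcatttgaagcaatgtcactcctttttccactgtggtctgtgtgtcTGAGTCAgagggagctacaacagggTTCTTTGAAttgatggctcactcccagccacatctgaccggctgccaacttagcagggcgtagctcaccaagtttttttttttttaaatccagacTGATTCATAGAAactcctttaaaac
Socs3: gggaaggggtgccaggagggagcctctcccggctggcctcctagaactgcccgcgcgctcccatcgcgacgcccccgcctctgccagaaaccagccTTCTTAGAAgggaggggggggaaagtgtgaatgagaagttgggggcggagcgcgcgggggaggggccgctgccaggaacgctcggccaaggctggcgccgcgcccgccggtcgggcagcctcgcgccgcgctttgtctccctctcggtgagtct
The Emp1 window holds AP-1 matches at -145 to -139 and at -25 to -19 and STAT matches at -120 to -112 and at -22 to -14, counted back from the start site, and the last AP-1 and STAT matches overlap by a few bases. A second RefSeq window of Emp1 holds none, and the Socs3 window holds 1 STAT match at -154 to -146. Emp1 was at 6.15, 9.32, 5.61 and 4.16 CPM with vehicle and at 52.97 to 106 CPM (median 77.7) with FGF1, without overlap (log2 FC 3.67 ± 0.20 SE, adjusted p = 3.9e-20). Windows were found for 12 of the 15 genes that rose most, 15 windows in all, of which 1 held an AP-1 match and 2 held a STAT match. Of 14306 windows of tested genes, 4.4% held an AP-1 match and 5.82% a STAT match. The shares were 5.91% and 7.08% over the windows of higher DEGs, and 5.79% and 6.07% over those of lower DEGs. The CArG box, the motif of serum response factor, was in 1.15% of windows of tested genes, 1.78% of those of higher DEGs and 0.747% of those of lower DEGs. A match describes letters in this window and is not evidence that a factor binds there.

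Receptors and mediators of TNF and IL-1 signalling were higher in part. Within genes of TNF, IL-1 and NF-kappaB signalling, 13 (50%) of the 26 measured members rose and none fell (median log2 FC 0.47). Tnfrsf1a, the main TNF receptor, was at 14.8, 11.1, 11.9 and 13.3 CPM with vehicle and at 69.8 to 109 CPM (median 85.5) with FGF1. The groups were wide apart (log2 FC 2.77 ± 0.14 SE, adjusted p = 3.0e-21). Tnfrsf12a, the TWEAK receptor, was at 5.96, 4.35, 5.21 and 5.197 CPM with vehicle and at 23.1 to 64.9 CPM (median 47.4) with FGF1 (log2 FC 3.22 ± 0.22 SE, adjusted p = 9.0e-17). Tnfaip2, a TNF-induced gene, lay at 0.879, 0.734, 0.675 and 0.684 CPM with vehicle and at 1.63 to 19.2 CPM (median 8.83) with FGF1, without overlap (log2 FC 3.71 ± 0.36 SE, adjusted p = 1.1e-11). Il1r1, Nfkb2, Rela, Relb, Nfkbiz, Traf2, Icam1, Myd88, Ripk1 and Csf1 made up the rest of those that rose.

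Interferon-induced genes rose in part. For interferon response genes, 12 (30.8%) of the 39 measured members rose and 1 (2.56%) fell and the median log2 FC was 0.49. The level of this list, as its median log2 distance from the vehicle mean, was 0.09 to 0.94 in FGF1-treated mice. Vehicle mouse 30 lay within that range at 0.52, and the other vehicle-treated mice lay between -0.30 and -0.11. Ifitm3, a membrane protein that blocks virus entry, was at 9.84, 6.63, 7.59 and 12.96 CPM with vehicle and at 15.5 to 74.9 CPM (median 44.5) with FGF1, above the vehicle range in every mouse (log2 FC 2.35 ± 0.26 SE, adjusted p = 2.5e-10). It belongs to a family of similar genes that can share reads. Gbp6, a member of another such family, was the one that fell. Gbp2, an interferon-induced GTPase, lay at 4.26, 7.06, 4.91 and 5.94 CPM with vehicle and at 12.8 to 22.3 CPM (median 18.2) with FGF1 (log2 FC 1.7 ± 0.47 SE, adjusted p = 0.0027). Among genes of MHC class I presentation, 2 (9.09%) of the 22 measured members rose and none fell, at a median log2 FC of 0.22 (0.11 in the length subset), a share close to the 11.5% of all genes. These were Nlrc5, the transactivator of MHC class I genes (log2 FC 1.97 ± 0.38 SE, adjusted p = 3.7e-05), and Psmb8, an immunoproteasome subunit (log2 FC 0.85 ± 0.25 SE, adjusted p = 0.0048), which lost its call in the length subset (log2 FC 0.36).

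Complement genes and enzymes of prostaglandin synthesis also changed. Of the complement genes, 9 (45%) of the 20 measured members rose and 2 (10%) fell, with a median log2 FC of 0.41. C1qa, part of the protein that starts the classical cascade, was at 17.9, 9.91, 13.7 and 17.97 CPM with vehicle and at 21.1 to 44.97 CPM (median 31.9) with FGF1 (log2 FC 1.15 ± 0.20 SE, adjusted p = 6.2e-06), and C1qb, C1qc, C3, C3ar1, Itgam, Itgb2 and Clu were among those that rose with it. C2 fell, from 2.17, 2.3996, 2.09 and 1.97 CPM with vehicle to 0.424 to 1.3999 CPM (median 0.893) with FGF1, without overlap (log2 FC -1.23 ± 0.23 SE, adjusted p = 2.0e-05), as did Cd46. Within genes of prostaglandin synthesis and reception, 7 (36.8%) of the 19 measured members rose and 1 (5.26%) fell (median log2 FC 0.29). Ptgs2, the inducible cyclooxygenase, was at 0.302, 0.565, 1.02 and 0.602 CPM with vehicle and at 2.44 to 37.4 CPM (median 13.8) with FGF1, lowest in mouse 17 and yet above all vehicle-treated mice (log2 FC 4.56 ± 0.58 SE, adjusted p = 1.0e-08). Ptges, the terminal synthase of prostaglandin E, was at 5.11, 2.77, 5.096 and 5.39 CPM with vehicle and at 8.96 to 62.5 CPM (median 30.1) with FGF1 (log2 FC 2.84 ± 0.31 SE, adjusted p = 2.2e-10). Hpgd, which breaks prostaglandins down, rose as well (log2 FC 2.02 ± 0.20 SE, adjusted p = 1.7e-11), and the phospholipase gene Pla2g4e fell (log2 FC -1.29 ± 0.14 SE, adjusted p = 4.1e-10).

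The pan-reactive and A2 lists of reactive astrocyte markers had the largest medians of all cell type lists. For pan-reactive astrocyte markers, 9 (90%) of the 10 measured members rose and none fell and the median log2 FC was 3.31. Among A2 reactive astrocyte markers, all 8 measured members rose (100%), at a median log2 FC of 2.58. The deposited table held 10 of the 13 genes listed as pan-reactive and 8 of the 12 listed as A2. Absent members are not in these shares. Of the A1 reactive astrocyte markers, 6 (50%) of the 12 measured members rose and 1 (8.33%) fell, with a median log2 FC of 0.65. Hspb1, a small heat shock protein, was at 3.49, 1.58, 1.51 and 2.19 CPM with vehicle and at 26.4 to 81.1 CPM (median 41.7) with FGF1, without overlap (log2 FC 4.46 ± 0.28 SE, adjusted p = 1.1e-17). Cd109, a membrane protein of the A2 list that binds TGF-beta, lay at 9.86, 12.1, 9.94 and 4.79 CPM with vehicle and at 56.7 to 111 CPM (median 71.9) with FGF1 (log2 FC 3.11 ± 0.20 SE, adjusted p = 1.2e-17). In the A1 list the enzyme gene Ggta1 rose (log2 FC 1.38 ± 0.15 SE, adjusted p = 1.0e-10) while Fbln5, an elastic fibre protein, fell from 62.5, 50.3, 49.2 and 49.5 CPM with vehicle to 15.3 to 24.3 CPM (median 19.9) with FGF1 (log2 FC -1.4 ± 0.16 SE, adjusted p = 1.2e-09). The A1 list shares Gbp2 with the interferon list and Psmb8 with the MHC list, and its median was 0.30 in the length subset.

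Intermediate filament genes were higher in part. Within intermediate filament genes, 5 (35.7%) of the 14 measured members rose and none fell (median log2 FC 0.43), and 4 rose in the length subset, at a median of 0.17. Nes, the filament protein nestin found in tanycytes, progenitors and reactive astrocytes, was at 14.8, 15.4, 16.3 and 10.6 CPM with vehicle and at 96.97 to 229 CPM (median 176) with FGF1. Mouse 17 was lowest and still several times above the vehicle-treated mice (log2 FC 3.65 ± 0.15 SE, adjusted p = 4.5e-24). The other members that rose were Gfap, Vim and the lamin genes Lmna and Lmnb2, and the neurofilament genes were not called.

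Many genes for the homeostatic work of astrocytes were lower. For astrocyte homeostasis genes, 1 (4.17%) of the 24 measured members rose and 10 (41.7%) fell and the median log2 FC was -0.36. Glul, glutamine synthetase, was at 1777, 1588, 1545 and 1928 CPM with vehicle and at 540.1 to 801 CPM (median 605) with FGF1. The highest FGF1-treated mouse lay below the lowest vehicle-treated mouse (log2 FC -1.46 ± 0.08 SE, adjusted p = 1.3e-19). Ntsr2, the neurotensin receptor of astrocytes, was at 260.3, 271, 243 and 274 CPM with vehicle and at 59.6 to 151 CPM (median 76.5) with FGF1, highest in mouse 22 (log2 FC -1.65 ± 0.12 SE, adjusted p = 5.1e-16). Gjb6, the gap junction protein connexin 30, lay at 145, 176, 126 and 143 CPM with vehicle and at 44.97 to 74.5 CPM (median 50.5) with FGF1 (log2 FC -1.46 ± 0.09 SE, adjusted p = 1.2e-17). Gja1, Slc4a4, Kcnj10, Slc6a11, Agt, Itih3 and Sparcl1 also fell, while the transcription factor gene Sox9 rose (log2 FC 1.1 ± 0.11 SE, adjusted p = 1.1e-11). Outside the list, Heyl, a target of Notch signalling, fell from 65.8, 59.4, 46.8 and 63.02 CPM with vehicle to 7.66 to 18.9 CPM (median 9.56) with FGF1, without overlap (log2 FC -2.5 ± 0.13 SE, adjusted p = 3.9e-20). Glul overlaps Teddm2 on the opposite strand.

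**Figure D4:**
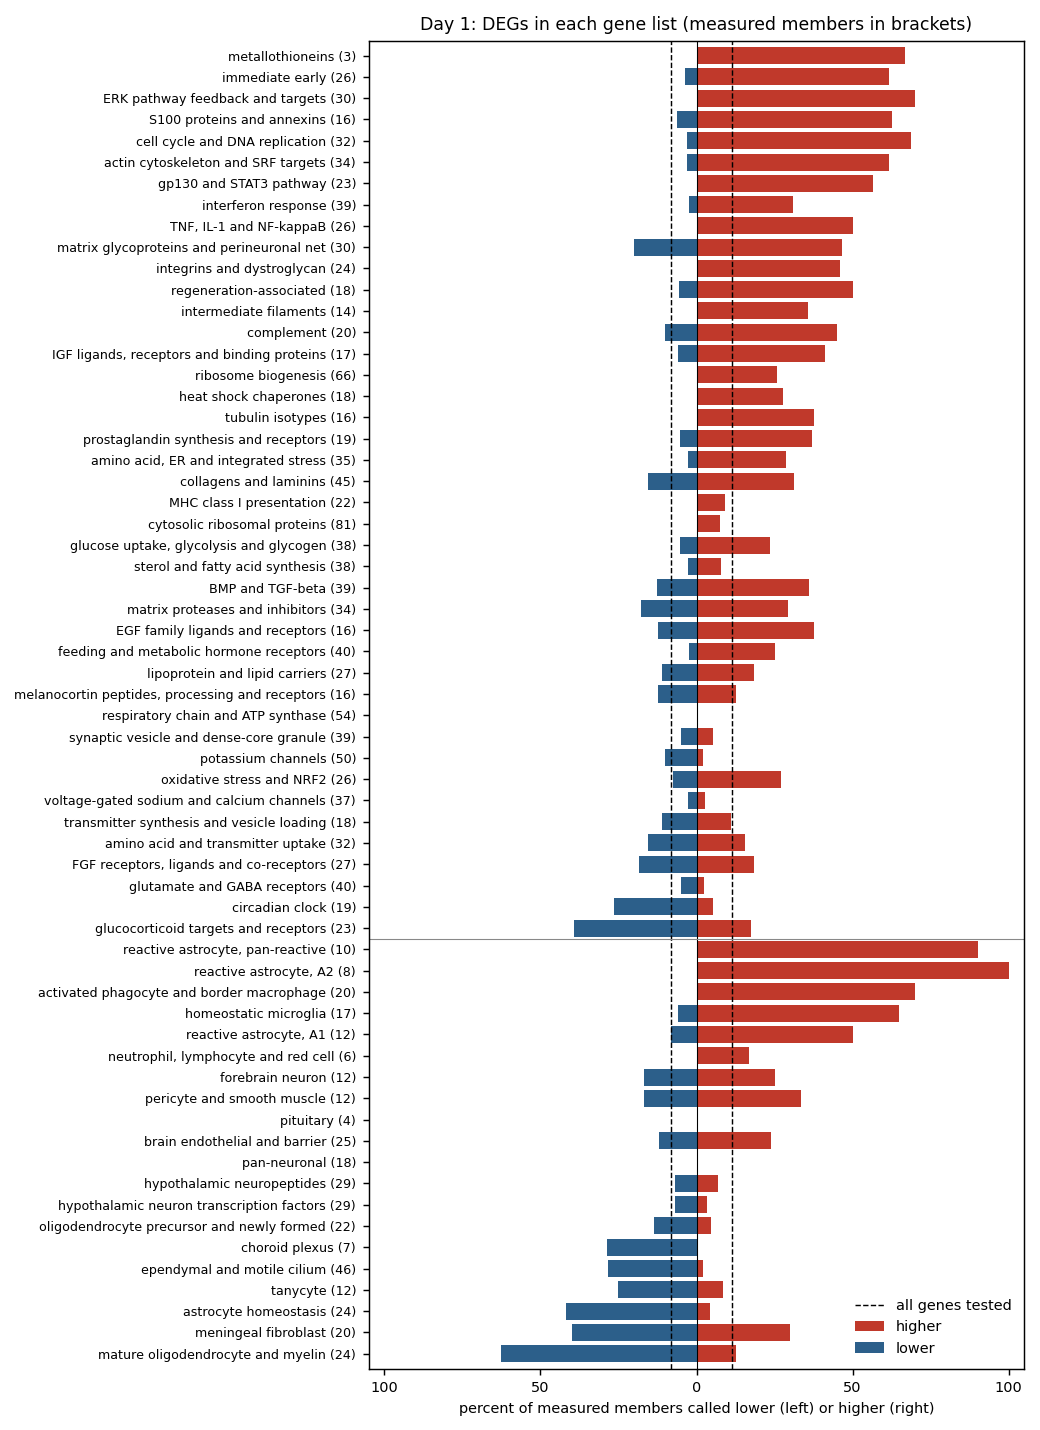
Percent of the measured members of each gene list called lower (blue, left) or higher (red, right) on Day 1, with the number of measured members in brackets and dashed lines at the 8.05% and 11.5% of all genes tested. Marker lists of cell types stand below the grey line. The pan-reactive and A2 astrocyte lists reach 90% and 100% higher, and the mature oligodendrocyte list reaches the largest share lower, 62.5%.

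Most S100 proteins, which bind calcium, and annexins rose. Among S100 proteins and annexins, 10 (62.5%) of the 16 measured members rose and 1 (6.25%) fell, at a median log2 FC of 0.76. Anxa2, which binds membranes and actin, was at 36.5, 27.98, 25.5 and 24.9 CPM with vehicle and at 200.5 to 305 CPM (median 267) with FGF1 (log2 FC 3.21 ± 0.16 SE, adjusted p = 3.1e-21). S100a6 was at 20.8, 17.8, 20.6 and 16.7 CPM with vehicle and at 97.8 to 211 CPM (median 169) with FGF1, without overlap (log2 FC 3.12 ± 0.18 SE, adjusted p = 3.7e-19). S100b, the S100 protein of mature astrocytes, fell by less, from 201, 198, 184 and 199.6 CPM with vehicle to 113 to 157 CPM (median 134) with FGF1 (log2 FC -0.52 ± 0.07 SE, adjusted p = 1.3e-08), and its log2 FC of -0.49 without FGF1 mouse 21 missed the threshold. Metallothioneins bind zinc and copper. Of the metallothioneins, 2 (66.7%) of the 3 measured members rose and none fell, with a median log2 FC of 1.47. Mt2 was at 121, 50.96, 57.1 and 85.5 CPM with vehicle and at 155 to 476 CPM (median 271) with FGF1 (log2 FC 1.81 ± 0.30 SE, adjusted p = 2.0e-06), and Mt1 rose alike (log2 FC 1.47 ± 0.26 SE, adjusted p = 6.7e-06). The 2 genes are similar in sequence and may share reads, and the log2 FC of Mt1, which is also the list's median, was 0.83 in the length subset.

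Many cytoskeletal genes rose. Within actin cytoskeleton genes and targets of serum response factor, 21 (61.8%) of the 34 measured members rose and 1 (2.94%) fell (median log2 FC 0.69, or 0.42 in the length subset). Flnc, the actin crosslinker filamin C, was at 6.26, 3.67, 4.51 and 4.76 CPM with vehicle and at 41.6 to 97.4 CPM (median 58.2) with FGF1 (log2 FC 3.75 ± 0.22 SE, adjusted p = 4.4e-19). Tagln2, an actin-binding protein, lay at 14.2, 11.3, 12.6 and 14.1 CPM with vehicle and at 101.04 to 158 CPM (median 122) with FGF1, without overlap (log2 FC 3.31 ± 0.14 SE, adjusted p = 9.5e-24). Myl9, a light chain of smooth muscle myosin, was the member that fell (log2 FC -0.87 ± 0.17 SE, adjusted p = 5.5e-05). For tubulin genes, 6 (37.5%) of the 16 measured members rose and none fell and the median log2 FC was 0.3. Tubb6 was at 2.23, 1.04, 1.02 and 1.29 CPM with vehicle and at 20.3 to 54.8 CPM (median 39.1) with FGF1, lowest in mouse 22 (log2 FC 4.88 ± 0.24 SE, adjusted p = 1.1e-21). Tuba1c (log2 FC 2.52) and Tubb2b (1.68) also rose, and tubulin genes are similar enough in sequence to share reads. Regeneration-associated genes, known from injured neurons, overlap with these lists. Among regeneration-associated genes, 9 (50%) of the 18 measured members rose and 1 (5.56%) fell, at a median log2 FC of 0.44.

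Genes that remodel the extracellular matrix changed in both directions. Of the matrix proteases and inhibitors, 10 (29.4%) of the 34 measured members rose and 6 (17.6%) fell, with a median log2 FC of 0.13, which was -0.02 in the length subset. Plau, the urokinase plasminogen activator, was at 1.51, 0.903, 1.14 and 1.203 CPM with vehicle and at 3.26 to 43.8 CPM (median 18.6) with FGF1, lowest in mouse 17 (log2 FC 4.18 ± 0.45 SE, adjusted p = 1.5e-10). Mmp19, a metalloproteinase, was at 1.84, 2.79, 2.51 and 2.05 CPM with vehicle and at 9.25 to 37.2 CPM (median 23.1) with FGF1 (log2 FC 3.42 ± 0.29 SE, adjusted p = 1.4e-13). Adamts20 fell from 16.8, 30.6, 18.8 and 16.4 CPM with vehicle to 5.34 to 10.1 CPM (median 7.46) with FGF1, so the groups did not overlap (log2 FC -1.41 ± 0.12 SE, adjusted p = 5.9e-13). Within matrix glycoproteins and perineuronal net components, 14 (46.7%) of the 30 measured members rose and 6 (20%) fell (median log2 FC 0.46). Perineuronal nets are coats of chondroitin sulfate proteoglycans around some neurons, and Ncan and Tnc among their components rose while Bcan and Hapln1 fell. Spp1, the secreted protein osteopontin, was at 26.8, 32.7, 23.02 and 19.1 CPM with vehicle and at 112 to 1963 CPM (median 856) with FGF1, with more spread between FGF1-treated mice than most genes named here (log2 FC 5.18 ± 0.63 SE, adjusted p = 3.3e-09). Lgals3, galectin-3, lay at 1.95, 2.88, 1.93 and 1.81 CPM with vehicle and at 17.1 to 37.03 CPM (median 24.9) with FGF1 (log2 FC 3.59 ± 0.22 SE, adjusted p = 8.7e-18).

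Integrin genes, which encode receptors for the matrix, were higher in part, and collagens were split. For integrin and dystroglycan genes, 11 (45.8%) of the 24 measured members rose and none fell and the median log2 FC was 0.45, while 9 rose in the length subset, at a median of 0.21. Itga5, the fibronectin receptor subunit, was at 3.35, 2.88, 2.98 and 3.61 CPM with vehicle and at 34.4 to 111 CPM (median 58.9) with FGF1, without overlap (log2 FC 4.29 ± 0.25 SE, adjusted p = 9.3e-19). Itga2, a collagen receptor subunit, rose, with vehicle mouse 28 at 2.3996 CPM inside the FGF1 range (log2 FC 2.13 ± 0.36 SE, adjusted p = 3.1e-06), and its log2 FC was 2.95 without that mouse. Among collagens and laminins, 14 (31.1%) of the 45 measured members rose and 7 (15.6%) fell, at a median log2 FC of 0.24, and the median was -0.08 in the length subset. Col5a3 was at 25.03, 13.3, 19.5 and 16.9 CPM with vehicle and at 66.7 to 190.03 CPM (median 118) with FGF1 (log2 FC 2.74 ± 0.22 SE, adjusted p = 3.3e-14). Col3a1, a fibrillar collagen of fibroblasts, lay at 6.76, 12.1, 6.14 and 7.33 CPM with vehicle and at 4.89 to 90.3 CPM (median 37.2) with FGF1, with overlap (log2 FC 2.42 ± 0.40 SE, adjusted p = 2.6e-06). Col4a3, a basement membrane collagen, fell (log2 FC -1.52 ± 0.22 SE, adjusted p = 1.4e-07).

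Growth factors of the TGF-beta and IGF families were among the genes that moved. Of the genes of BMP and TGF-beta signalling, 14 (35.9%) of the 39 measured members rose and 5 (12.8%) fell, with a median log2 FC of 0.17. Tgfb1 was at 1.95, 1.27, 1.16 and 2.16 CPM with vehicle and at 3.19 to 15.9 CPM (median 7.08) with FGF1 (log2 FC 2.32 ± 0.29 SE, adjusted p = 7.4e-09). Bmp6 went from 10.7, 16.9, 7.28 and 8.86 CPM with vehicle to 1.61 to 7.83 CPM (median 4.99) with FGF1, with slight overlap (log2 FC -1.18 ± 0.26 SE, adjusted p = 2.2e-04). Within IGF ligands, receptors and binding proteins, 7 (41.2%) of the 17 measured members rose and 1 (5.88%) fell (median log2 FC 0.37). Igfbp3, an IGF-binding protein, was at 21.2, 24.3, 19.7 and 18.7 CPM with vehicle and at 41.6 to 279 CPM (median 91.2) with FGF1, above the vehicle range throughout (log2 FC 2.51 ± 0.29 SE, adjusted p = 1.5e-09). Igfbp2, Igfbp4, Igfbp5, Igfbp6, Igfbp7 and the protease gene Pappa rose with it, and Igf2 fell.

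Markers of cells that line the ventricle were called lower in part for ependymal cells and in both directions for tanycytes. For tanycyte markers, 1 (8.33%) of the 12 measured members rose and 3 (25%) fell and the median log2 FC was -0.33, while 2 rose and 1 fell in the length subset, at a median of -0.10. Col23a1, a membrane collagen of tanycytes, was at 67.6, 73.4, 54.3 and 51.9 CPM with vehicle and at 10.6 to 36.9 CPM (median 30.4) with FGF1, lowest in mouse 17 (log2 FC -1.07 ± 0.15 SE, adjusted p = 1.3e-07). Frzb and Slc17a8 fell as well, and Adm, the vasodilator peptide adrenomedullin, rose (log2 FC 2.23 ± 0.32 SE, adjusted p = 1.6e-07). The tanycyte transcription factor Rax was not analysed here. Among ependymal and motile cilium genes, 1 (2.17%) of the 46 measured members rose and 13 (28.3%) fell, at a median log2 FC of -0.31. The level of this list, as its median log2 distance from the vehicle mean, was -0.52 to -0.13 in FGF1-treated mice. Vehicle mouse 30 lay within that range at -0.33. Ccdc153, a gene of ciliated ependymal cells, was at 21.1, 17.3, 19.4 and 15.4 CPM with vehicle and at 1.95 to 5.48 CPM (median 3.53) with FGF1, without overlap (log2 FC -2.33 ± 0.21 SE, adjusted p = 1.1e-12). Dynlrb2, a dynein light chain, lay at 11.02, 13.3, 9.59 and 7.303 CPM with vehicle and at 2.22 to 4.68 CPM (median 3.098) with FGF1 (log2 FC -1.62 ± 0.18 SE, adjusted p = 7.1e-10). Foxj1, the master regulator of motile cilia, was not called (log2 FC 0.17 ± 0.20 SE, adjusted p = 0.52), and its log2 FC was -0.46 in the length subset. Cfap45 was the member that rose, with overlapping groups (log2 FC 0.73 ± 0.13 SE, adjusted p = 1.4e-05).

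Most myelin genes measured were lower. Of the mature oligodendrocyte and myelin genes, 3 (12.5%) of the 24 measured members rose and 15 (62.5%) fell, with a median log2 FC of -0.59. Aspa, an enzyme that supplies acetate for myelin lipids, was at 22.8, 35.1, 22.4 and 22.8 CPM with vehicle and at 3.52 to 15.04 CPM (median 4.82) with FGF1. Mouse 22 was the highest of the FGF1-treated mice and lay below all vehicle-treated mice (log2 FC -2.06 ± 0.21 SE, adjusted p = 3.0e-11). Mbp, myelin basic protein, was at 1434, 1130.4, 1019 and 1837 CPM with vehicle and at 741 to 1516 CPM (median 868) with FGF1, with overlapping groups (log2 FC -0.52 ± 0.15 SE, adjusted p = 0.0036). Its log2 FC lay near the threshold and missed it without vehicle mouse 30 (-0.34), without vehicle mouse 27 (-0.49) or without FGF1 mouse 20, 23 or 25 (-0.49 each). Klk6, a secreted protease of mature oligodendrocytes, went the other way, from 3.599, 3.25, 1.05 and 4.103 CPM with vehicle to 5.78 to 36.3 CPM (median 15.5) with FGF1 (log2 FC 2.61 ± 0.40 SE, adjusted p = 5.2e-07), and Trf, which carries iron, and Car2 also rose. Within markers of oligodendrocyte precursors and newly formed oligodendrocytes, 1 (4.54%) of the 22 measured members rose and 3 (13.6%) fell (median log2 FC -0.19). In the length subset 2 rose and 6 fell, and without vehicle mouse 28 3 rose and 4 fell. Pdgfra, the receptor that marks the precursors, was not called, with levels of 80.9, 109.8, 82.9 and 82.98 CPM with vehicle and 54.97 to 75.6 CPM (median 61.3) with FGF1 that did not overlap (log2 FC -0.49 ± 0.09 SE, adjusted p = 8.2e-06). It lay at the threshold and passed in 11 alternatives, among them DESeq2 (-0.54), upper-quartile factors (-0.51) and leaving out FGF1 mouse 20 or 26 or vehicle mouse 27, 29 or 30 (-0.54 to -0.52). Enpp6, which marks oligodendrocytes that have just formed, fell (log2 FC -1.43 ± 0.23 SE, adjusted p = 2.0e-06), as did Neu4 (log2 FC -1.24 ± 0.13 SE, adjusted p = 6.9e-11) and Gpr17, and Bcas1 rose (log2 FC 0.61 ± 0.12 SE, adjusted p = 5.1e-05).

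Markers of microglia and of activated phagocytes were mostly higher. For homeostatic microglia markers, 11 (64.7%) of the 17 measured members rose and 1 (5.88%) fell and the median log2 FC was 0.71, or 0.47 in the length subset. Fcrls, a scavenger receptor of microglia, was at 7.12, 4.86, 6.004 and 8.75 CPM with vehicle and at 16.2 to 31.7 CPM (median 24.6) with FGF1, without overlap (log2 FC 1.83 ± 0.17 SE, adjusted p = 5.1e-12). Olfml3 rose alike (log2 FC 1.43 ± 0.14 SE, adjusted p = 9.2e-12). P2ry12, the ADP receptor of resting microglia, was the member that fell, from 13.7, 18.6, 14.3 and 16.5 CPM with vehicle to 7.11 to 12.5 CPM (median 9.66) with FGF1 (log2 FC -0.66 ± 0.14 SE, adjusted p = 1.2e-04), though its log2 FC of -0.49 missed the threshold in the length subset. Among markers of activated phagocytes and border macrophages, 14 (70%) of the 20 measured members rose and none fell, at a median log2 FC of 0.81. Fcgr2b, the inhibitory Fc receptor, was at 8.49, 10.6, 6.24 and 4.704 CPM with vehicle and at 62.7 to 103 CPM (median 78.3) with FGF1 (log2 FC 3.39 ± 0.21 SE, adjusted p = 3.2e-18). Cd68, Cd14, Cd63, Ctsz, Lyz2, Gpnmb, Tyrobp, Mrc1, Cd163, Axl and Ccr2 rose too, with Spp1 and Lgals3. Of the markers of neutrophils, lymphocytes and red cells, 1 (16.7%) of the 6 measured members rose and none fell, with a median log2 FC of 0.29, or -0.06 in the length subset. That gene was Ptprc, the CD45 antigen that microglia also carry (log2 FC 1.24 ± 0.23 SE, adjusted p = 1.7e-05), and the part of blood cells in the result was not tested.

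Vascular markers moved in both directions. Within brain endothelial and barrier genes, 6 (24%) of the 25 measured members rose and 3 (12%) fell (median log2 FC 0.02). Cldn5, the tight junction protein claudin-5, was not called (log2 FC 0.22 ± 0.15 SE, adjusted p = 0.23), and its log2 FC was -0.20 in the length subset. Icam1, an adhesion molecule that binds leukocytes, was at 2.36, 1.38, 2.37 and 2.11 CPM with vehicle and at 4.07 to 9.43 CPM (median 6.99) with FGF1, without overlap (log2 FC 1.81 ± 0.22 SE, adjusted p = 3.5e-09). Cdh5, VE-cadherin, rose (log2 FC 1.14 ± 0.21 SE, adjusted p = 1.9e-05) and Itm2a fell (log2 FC -0.78 ± 0.14 SE, adjusted p = 1.0e-05), each with overlap. Among pericyte and smooth muscle markers, 4 (33.3%) of the 12 measured members rose and 2 (16.7%) fell, at a median log2 FC of 0.19, or 0.02 in the length subset. Kcnj8, a potassium channel subunit of pericytes, rose (log2 FC 1.12 ± 0.16 SE, adjusted p = 1.5e-07), and Myh11, smooth muscle myosin, fell from 7.47, 10.3, 9.98 and 10.6 CPM with vehicle to 2.44 to 5.79 CPM (median 4.87) with FGF1 (log2 FC -1.01 ± 0.15 SE, adjusted p = 2.9e-07).

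Meningeal markers moved both ways and varied between mice of the same group. Among meningeal fibroblast markers, 6 (30%) of the 20 measured members rose and 8 (40%) fell, at a median log2 FC of -0.37. Fmod, the collagen-binding proteoglycan fibromodulin, was at 53.7, 65.3, 36.5 and 41.6 CPM with vehicle and at 1.29 to 7.99 CPM (median 4.99) with FGF1. All FGF1-treated mice lay below all vehicle-treated mice (log2 FC -3.36 ± 0.34 SE, adjusted p = 2.1e-11). Slc22a6, an organic anion transporter of the meninges, was at 8.05, 11.3, 4.35 and 6.04 CPM with vehicle and at 0.0531 to 2.44 CPM (median 0.451) with FGF1 (log2 FC -3.73 ± 0.51 SE, adjusted p = 5.2e-08). Ogn, another small proteoglycan, lay at 19.1, 43.7, 14.9 and 14.6 CPM with vehicle and at 1.38 to 6.36 CPM (median 2.95) with FGF1 (log2 FC -2.83 ± 0.40 SE, adjusted p = 1.1e-07). Slc6a13, the GABA transporter GAT2, was at 28.96, 31.03, 16.7 and 22.4 CPM with vehicle and at 1.51 to 7.91 CPM (median 3.49) with FGF1, also without overlap (log2 FC -2.71 ± 0.32 SE, adjusted p = 1.5e-09). Igf2, Omd, Slc13a4 and Aldh1a1 fell as well, whereas Col3a1, Dcn, Lum, Igfbp2, Aldh1a2 and Gjb2 rose. The list's level, as its median log2 distance from the vehicle mean, ran from -0.42 to 0.46 in vehicle-treated mice and from -1.28 to 0.27 in FGF1-treated mice. The part of meningeal tissue in these results was not tested. Of the choroid plexus markers, 0 of the 7 measured members rose and 2 (28.6%) fell, with a median log2 FC of -0.24. Clic6 was the better expressed of them (log2 FC -1.31 ± 0.23 SE, adjusted p = 6.7e-06), Kcnj13 was the other, and the choroid plexus gene Ttr was not analysed here. Outside these lists, Myoc, a secreted glycoprotein whose exons overlap Myocos, fell from 10.6, 17.8, 10.6 and 13.9 CPM with vehicle to 0.714 to 3.26 CPM (median 1.29) with FGF1 (log2 FC -3.38 ± 0.23 SE, adjusted p = 1.1e-16), and the proline transporter gene Slc6a20a fell from 47.7, 76.1, 37.1 and 33.1 CPM with vehicle to 4.27 to 13.04 CPM (median 6.48) with FGF1 (log2 FC -2.74 ± 0.32 SE, adjusted p = 1.1e-09).

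Few markers of neurons were called. Within pan-neuronal markers, none of the 18 measured members was called (median log2 FC -0.07), while 1 rose in the length subset and 2 fell with DESeq2 size factors. For hypothalamic neuropeptides, 2 (6.897%) of the 29 measured members rose and 2 (6.897%) fell and the median log2 FC was -0.07, below the shares of all genes. In the length subset 1 rose and 3 fell, at a median of -0.20, and without vehicle mouse 28 3 rose and none fell. Pomc, the precursor of the melanocortin peptides that reduce feeding, was at 7.198, 4.26, 4.93 and 7.88 CPM with vehicle and at 9.66 to 38.1 CPM (median 18.5) with FGF1. The groups did not overlap (log2 FC 1.71 ± 0.47 SE, adjusted p = 0.0029), but the log2 FC of 1.19 in the length subset did not pass. Gal, galanin, rose with overlap (log2 FC 0.78 ± 0.19 SE, adjusted p = 5.7e-04) and did not pass in the length subset (0.49). Npy, made by AgRP neurons, was at 235, 175, 171 and 81.7 CPM with vehicle and at 80.8 to 151 CPM (median 108) with FGF1, with overlap (log2 FC -0.61 ± 0.23 SE, adjusted p = 0.028). It did not pass in the length subset (-0.65), with sample quality weights (-0.43) or without vehicle mouse 27 (-0.39), 28 (-0.58) or 29 (-0.60). Agrp, the melanocortin antagonist from the same neurons, was at 77.01, 30.7, 44.96 and 20.3 CPM with vehicle and at 26.3 to 63.6 CPM (median 38.6) with FGF1 and was not called (log2 FC -0.09 ± 0.31 SE, adjusted p = 0.84). The spread of Agrp between vehicle-treated mice was wide, and its log2 FC was 0.35 without vehicle mouse 27. Among genes for melanocortin peptides, their processing and receptors, 2 (12.5%) of the 16 measured members rose and 2 (12.5%) fell, at a median log2 FC of -0.01, with Mc4r, the receptor for these peptides, higher with slight overlap (log2 FC 0.95 ± 0.19 SE, adjusted p = 6.2e-05).

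A separate list held markers of forebrain neurons, and which cells carried these transcripts was not tested. Of the forebrain neuron markers, 3 (25%) of the 12 measured members rose and 2 (16.7%) fell, with a median log2 FC of 0.28, or 0.096 in the length subset. Ppp1r1b, the phosphoprotein DARPP-32, which tanycytes also make, was at 34.5, 30.5, 30.95 and 34.2 CPM with vehicle and at 3.82 to 13.6 CPM (median 4.99) with FGF1, without overlap (log2 FC -2.41 ± 0.39 SE, adjusted p = 1.8e-06). Lamp5, found in forebrain interneurons, rose, although mouse 22 at 15.3 CPM lay below all vehicle-treated mice (log2 FC 1.13 ± 0.30 SE, adjusted p = 0.0023). Of the transcription factors of hypothalamic neurons, 1 (3.45%) of the 29 measured members rose and 2 (6.897%) fell, with a median log2 FC of -0.11, or 0.02 in the length subset. Nr5a1, which marks the ventromedial nucleus, was at 30.3, 23.7, 20.6 and 25.2 CPM with vehicle and at 11.4 to 21.2 CPM (median 16.4) with FGF1 (log2 FC -0.57 ± 0.21 SE, adjusted p = 0.021) and missed the threshold without vehicle mouse 27 (-0.46). For pituitary markers, none of the 4 measured members was called and the median log2 FC was 0.05, or 0.24 in the length subset.

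Receptors for feeding signals changed in part. Among receptors for feeding and metabolic hormones, 10 (25%) of the 40 measured members rose and 1 (2.5%) fell, at a median log2 FC of 0.08, or 0.22 in the length subset. Bdkrb2, the bradykinin receptor, was at 3.68, 3.501, 4.07 and 4.05 CPM with vehicle and at 7.33 to 46.4 CPM (median 23.9) with FGF1, without overlap (log2 FC 2.8 ± 0.27 SE, adjusted p = 9.1e-12). Npy2r, an inhibitory receptor for NPY and PYY, was at 20.2, 25.4, 25.2 and 19.8 CPM with vehicle and at 34.998 to 52.6 CPM (median 39.8) with FGF1 (log2 FC 0.91 ± 0.16 SE, adjusted p = 4.4e-06). Hcrtr1, an orexin receptor, rose with overlap (log2 FC 1.18 ± 0.20 SE, adjusted p = 3.0e-06), and Npy1r, Adipor1, Cckar, Sstr1, Hcrtr2, Oxtr and Gpr83 rose as well. Htr2c, the serotonin receptor of POMC neurons, fell with overlap (log2 FC -0.58 ± 0.12 SE, adjusted p = 6.7e-05), and its log2 FC of -0.21 in the length subset and -0.45 without vehicle mouse 28 did not pass.

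Few genes of synaptic vesicles, transmitter receptors and voltage-gated channels were called. Of the synaptic vesicle and dense-core granule genes, 2 (5.13%) of the 39 measured members rose and 2 (5.13%) fell, with a median log2 FC of -0.05, while 1 rose and none fell in the length subset and 2 rose and 5 fell with DESeq2 size factors. Vgf, a neuropeptide precursor induced by growth factors, rose with overlap (log2 FC 1.01 ± 0.18 SE, adjusted p = 8.6e-06), and Rims2 fell (log2 FC -0.55 ± 0.09 SE, adjusted p = 1.0e-06) but not in the length subset (-0.42) or without vehicle mouse 28 (-0.49). Within glutamate and GABA receptor genes, 1 (2.5%) of the 40 measured members rose and 2 (5%) fell (median log2 FC -0.26), and none rose and 1 fell in the length subset, at a median of -0.080. Grm4 was the member that rose. Grin2c, an NMDA receptor subunit that astrocytes also express, was at 28.3, 21.1, 27.7 and 33.6 CPM with vehicle and at 9.403 to 17.3 CPM (median 12.05) with FGF1, without overlap (log2 FC -1.12 ± 0.15 SE, adjusted p = 6.2e-08). For potassium channel genes, 1 (2%) of the 50 measured members rose and 5 (10%) fell and the median log2 FC was -0.05, and 1 rose and 2 fell in the length subset, at a median of -0.14, and without vehicle mouse 28 1 rose and 3 fell, at a median of -0.15. Kcnn2, a calcium-activated channel, fell from 22.9, 30.6, 21.6 and 20.3 CPM with vehicle to 9.78 to 15.9 CPM (median 13.8) with FGF1 (log2 FC -0.82 ± 0.11 SE, adjusted p = 3.7e-08). Among voltage-gated sodium and calcium channel genes, 1 (2.703%) of the 37 measured members rose and 1 (2.703%) fell, at a median log2 FC of -0.07, and with DESeq2 size factors 1 rose and 3 fell. Without vehicle mouse 28 the median was -0.15, 1 rose and none fell. Cacng8 rose, and Cacna2d1 fell (log2 FC -0.59 ± 0.13 SE, adjusted p = 1.6e-04) but not in the length subset (-0.15) or without vehicle mouse 28 (-0.39). Of the genes of transmitter synthesis and vesicle loading, 2 (11.1%) of the 18 measured members rose and 2 (11.1%) fell, with a median log2 FC of -0.1, and 2 rose and none fell in the length subset, at a median of -0.035. Gch1, which makes the cofactor of monoamine synthesis, rose without overlap (log2 FC 0.96 ± 0.19 SE, adjusted p = 5.3e-05). Within genes of amino acid and transmitter uptake, 5 (15.6%) of the 32 measured members rose and 5 (15.6%) fell (median log2 FC -0.13), and 3 rose and 5 fell in the length subset.

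Stress responses were mixed. For genes of amino acid, ER and integrated stress, 10 (28.6%) of the 35 measured members rose and 1 (2.86%) fell and the median log2 FC was 0.27. Eif4ebp1, an inhibitor of translation, was at 1.37, 0.819, 0.908 and 0.793 CPM with vehicle and at 2.48 to 5.71 CPM (median 3.52) with FGF1 (log2 FC 1.97 ± 0.22 SE, adjusted p = 6.5e-10), while Phgdh, the first enzyme of serine synthesis, fell, with mouse 22 inside the vehicle range (log2 FC -1.0 ± 0.13 SE, adjusted p = 4.1e-08). Among heat shock chaperones, 5 (27.8%) of the 18 measured members rose and none fell, at a median log2 FC of 0.32. Of the oxidative stress and NRF2 genes, 7 (26.9%) of the 26 measured members rose and 2 (7.69%) fell, with a median log2 FC of -0.06, or 0.01 in the length subset. Hmox1, heme oxygenase, was at 7.17, 4.57, 5.93 and 6.84 CPM with vehicle and at 8.18 to 40.4 CPM (median 25.1) with FGF1 (log2 FC 2.04 ± 0.23 SE, adjusted p = 7.8e-10). Nqo1, a quinone reductase, moved against it, from 14.7, 15.4, 14.1 and 12.4 CPM with vehicle to 1.63 to 8.76 CPM (median 5.0003) with FGF1, without overlap (log2 FC -1.4 ± 0.12 SE, adjusted p = 1.8e-13). Within glucocorticoid targets and receptors, 4 (17.4%) of the 23 measured members rose and 9 (39.1%) fell (median log2 FC -0.36). Sult1a1, a sulfotransferase, fell from 47.6, 56.6, 39.5 and 38.8 CPM with vehicle to 7.55 to 20.7 CPM (median 16.4) with FGF1 (log2 FC -1.51 ± 0.17 SE, adjusted p = 7.2e-10), and Map3k6 rose (log2 FC 2.15 ± 0.33 SE, adjusted p = 5.2e-07). For circadian clock genes, 1 (5.26%) of the 19 measured members rose and 5 (26.3%) fell and the median log2 FC was -0.29. Ciart, a repressor of the clock, was at 47.6, 48.8, 25.7 and 39.6 CPM with vehicle and at 11.3 to 16.5 CPM (median 14.6) with FGF1, without overlap (log2 FC -1.47 ± 0.14 SE, adjusted p = 1.4e-11), and Hlf, Per3, Cry2 and Tef fell while Bhlhe40 rose.

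Metabolic genes changed singly. Among genes of glucose uptake, glycolysis and glycogen, 9 (23.7%) of the 38 measured members rose and 2 (5.26%) fell, at a median log2 FC of 0.18, and 6 rose and 5 fell in the length subset, at a median of -0.0030. Slc2a4, the insulin-responsive glucose transporter GLUT4, was at 5.91, 7.09, 7.66 and 7.55 CPM with vehicle and at 0.743 to 5.35 CPM (median 1.23) with FGF1, highest in mouse 22 (log2 FC -2.11 ± 0.26 SE, adjusted p = 6.8e-09). Ppp1r3g, which targets a phosphatase to glycogen, lay at 0.495, 0.226, 0.465 and 0.328 CPM with vehicle and at 0.384 to 5.14 CPM (median 3.51) with FGF1, with mouse 22 alone inside the vehicle range (log2 FC 3.03 ± 0.38 SE, adjusted p = 8.8e-09). Of the genes of sterol and fatty acid synthesis, 3 (7.89%) of the 38 measured members rose and 1 (2.63%) fell, with a median log2 FC of 0.18. The balance of calls was not stable, with 5 rising and 4 falling in the length subset, and 2 rising and 3 falling without vehicle mouse 28 and also with DESeq2 size factors. Elovl1, which lengthens fatty acids, was at 15.3, 17.9, 23.3 and 20.6 CPM with vehicle and at 32.6 to 47.5 CPM (median 41.8) with FGF1, without overlap (log2 FC 1.12 ± 0.10 SE, adjusted p = 3.6e-12). Of the lipoprotein and lipid carrier genes, 5 (18.5%) of the 27 measured members rose and 3 (11.1%) fell, with a median log2 FC of 0.07, or -0.13 in the length subset. Plin2, a coat protein of lipid droplets, rose (log2 FC 0.92 ± 0.17 SE, adjusted p = 2.0e-05), and Pla2g7, an enzyme of lipoproteins, fell (log2 FC -0.71 ± 0.09 SE, adjusted p = 3.0e-08), and neither passed in the length subset (0.42 and -0.49). For respiratory chain and ATP synthase genes, none of the 54 measured members was called and the median log2 FC was -0.04.

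Most cell cycle genes measured were higher, and so were some genes that build ribosomes. Among cell cycle and DNA replication genes, 22 (68.8%) of the 32 measured members rose and 1 (3.12%) fell, at a median log2 FC of 0.71, and 14 rose in the length subset. Ccnd1, the G1 cyclin that links growth factors to division, was at 40.4, 33.1, 31.98 and 41.7 CPM with vehicle and at 132 to 171 CPM (median 157) with FGF1. Its groups lay far apart (log2 FC 2.08 ± 0.10 SE, adjusted p = 3.5e-22). Mki67, made in dividing cells, was at 0.632, 0.423, 1.19 and 0.738 CPM with vehicle and at 1.52 to 9.69 CPM (median 5.11) with FGF1 (log2 FC 2.9 ± 0.42 SE, adjusted p = 1.6e-07). Mcm3, a subunit of the replicative helicase, was at 2.25, 1.78, 2.47 and 2.52 CPM with vehicle and at 7.003 to 16.5 CPM (median 10.8) with FGF1 (log2 FC 2.31 ± 0.19 SE, adjusted p = 4.4e-14). Which cells carried these transcripts cannot be read from bulk libraries. Cdkn1c, a cyclin-dependent kinase inhibitor, was the member that fell. Of the ribosome biogenesis genes, 17 (25.8%) of the 66 measured members rose and none fell, with a median log2 FC of 0.33. Ltv1, a factor for export of the small subunit, was at 15.1, 16.5, 18.01 and 17.9 CPM with vehicle and at 24.95 to 38.7 CPM (median 34.7) with FGF1, without overlap (log2 FC 1.02 ± 0.09 SE, adjusted p = 1.7e-12), and Bysl rose alike (log2 FC 1.07 ± 0.12 SE, adjusted p = 3.2e-10). Within cytosolic ribosomal protein genes, 6 (7.41%) of the 81 measured members rose, a share below the 11.5% of all genes, and none fell (median log2 FC 0.2). In the length subset 2 rose and 1 fell, at a median of -0.04, and without vehicle mouse 28 3 rose and none fell. Rplp0 did not pass in the subset (log2 FC 0.36), and Rplp1, at 0.57 over all libraries, was at -0.29. The call of Rplp1 was also lost in most other alternatives, among them DESeq2 (0.52), upper-quartile factors (0.55), the fit of Day 1 libraries alone (0.57) and leaving out FGF1 mouse 18, 19, 21, 22 or 24 (0.50 to 0.56) or vehicle mouse 28 (0.37) or 29 (0.44). Genes for ribosomal proteins have many copies in the genome that can share reads.

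**Figure D5:**
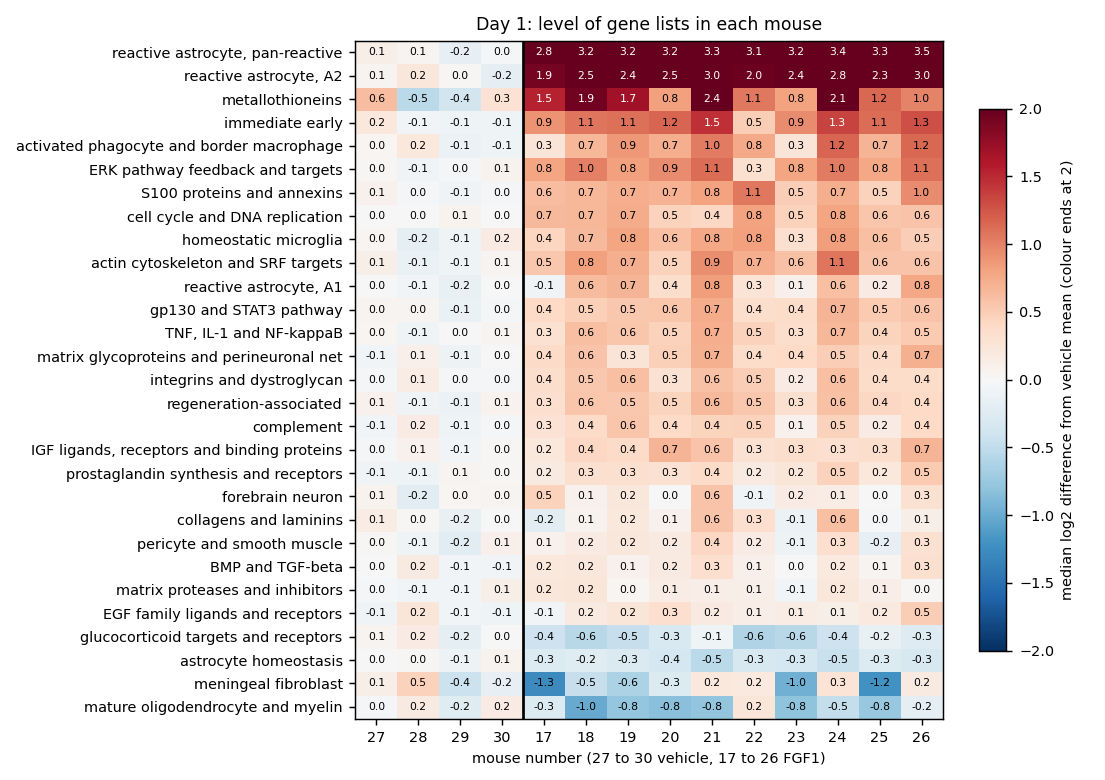
Level of gene lists (rows) in each mouse (columns, vehicle-treated mice 27 to 30 left of the line and FGF1-treated mice 17 to 26 right of it), as the median log2 difference of the members from the vehicle mean, with red above, blue below and the colour scale ending at 2. The pan-reactive astrocyte row stands at 2.78 to 3.48 in all FGF1-treated mice, while in mouse 22 the ERK row is at 0.31 and the oligodendrocyte row at 0.24.

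FGF1-treated mice differed among themselves, and mouse 22 stood apart in the ERK and oligodendrocyte lists. Its level of the ERK list, as the median log2 distance of the members from the vehicle mean, was 0.31, while the other 9 mice lay between 0.77 and 1.11. For immediate early genes it was 0.49, against 0.90 to 1.46 in the others. For ribosome biogenesis genes it was 0.17, against 0.29 to 0.39 in the others. The oligodendrocyte list was at 0.24 in mouse 22, above the vehicle mean, and at -1.0 to -0.18 in the others. Its reactive astrocyte level was like that of the others, with the pan-reactive list at 3.07 and Gfap at 2182 CPM, the highest of all 14 mice. Among the 10 FGF1-treated mice, mouse 22 was lowest for 302 of 1339 higher DEGs with a mean of at least 5 CPM, or 22.6%, and highest for 232 of 768 lower DEGs, or 30.2%. The shallow library of mouse 17 was lowest for 33.3% and highest for 22.5%. All other mice lay below these shares, between 1.42% and 15.2% of the higher and between 1.82% and 16.1% of the lower DEGs.

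The meningeal list split the FGF1-treated mice in another way. It was at -1.28 in mouse 17, -1.21 in mouse 25 and -0.95 in mouse 23, and above the vehicle mean in mice 21, 22, 24 and 26, at 0.21, 0.19, 0.27 and 0.18. Spp1 was highest in mice 26 and 21, at 1963 and 1833 CPM, and lowest in mouse 17 at 112 CPM. Timp1 stood at 307 CPM in mouse 24 and 301 CPM in mouse 21, and its lowest level was 61.1 CPM. Vehicle mouse 28 had the highest meningeal level of the vehicle-treated mice, 0.46, and the list's median log2 FC was -0.37 with that mouse and -0.08 without it. Leaving out this mouse moved the medians of further lists by over 1.5 times. They became -0.18 for tanycyte markers, 0.16 for markers of neutrophils, lymphocytes and red cells, 0.16 for forebrain neuron markers and 0.11 for pituitary markers. They became 0.23 for the EGF family, 0.01 for matrix proteases and inhibitors, 0.11 for glucose uptake, glycolysis and glycogen and 0.10 for sterol and fatty acid synthesis. The medians were 0.13 for ribosomal proteins, 0.14 for feeding and metabolic hormone receptors and -0.04 for transmitter synthesis without it.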

How the data were processed

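mRNA of the hypothalamus of single ob/ob mice was sequenced from libraries made with a strand-specific Illumina kit. The authors aligned reads with STAR and deposited a table of raw counts per gene, in whole numbers and not normalized. The labels name the build GRCh38 for these mouse samples, and the counting program, its strand setting and any filter on genes are not given in the sources used here. The table holds 14221 genes, each with at least 307 counts over the 47 libraries. Listed genes absent from it were not measured, and a weak gene may be in it through the groups where it is high. It held 20 of 33 listed markers of activated phagocytes and border macrophages and 6 of 20 of neutrophils, lymphocytes and red cells. Of the cell cycle and DNA replication genes it held 32 of 43.

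Gene positions and overlaps were taken by symbol from GENCODE annotation of GRCm38, in which 14180 genes were found. From the deposited counts, TMM factors were computed and all 47 libraries were fitted together by edgeR 4.0.16 (R 4.3.3) with the 7 groups as coefficients, and FGF1 was compared with vehicle on Day 1 by its quasi-likelihood test. Benjamini-Hochberg adjustment covered the whole table. The p-values rest on a spread between mice within groups that was estimated over all 47 libraries, most of them of other days. In a fit of the Day 1 libraries alone there were 2502 DEGs. The thresholds were 0.05 for the adjusted p and 0.5 for the size of the log2 fold change. The filter on low counts removed 0 genes. Levels in the text are CPM scaled by TMM, and log2 levels are log2(CPM + 0.5). The SE of a log2 fold change was derived from the test, as its absolute value divided by the square root of the F statistic. In simulated Day 1 data, 195 of 200 changed genes (97.5%) were recovered at an absolute log2 fold change of 1, with 2 false calls. The changed genes were taken from those above 1 CPM with vehicle. Counts were drawn independently, without the differences by gene length between libraries, so recovery in the real data may be lower.

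The comparison and the 62 gene lists were chosen with earlier results of these data known. A rule named 209 genes, of which 157 are given with values and the choice among them was made after seeing the values. It took the 15 largest changes in each direction among called genes whose groups did not overlap and whose larger group mean was at least 5 CPM (unnamed gene models left out), up to 3 called genes with the largest changes in each list at 1 CPM or more with the largest change in the other direction, and members that define a pathway or cell type, called or not. Some other called members are named without values, and the rest are only counted. Alternatives were other scalings, DESeq2 1.42.0, limma 3.58.1, filters, thresholds, thinned libraries and each mouse left out in turn. The fits in the length subset and without FGF1 mouse 17 and vehicle mouse 28 were chosen after seeing the data. The median SD of log2 levels within a group was 0.208 with FGF1 and 0.218 with vehicle.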

Additional observations from a re-analysis of the deposited data

Results flagged for a closer look

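The values below stood apart from the others of their group by Dixon's 95% criterion, on log10 totals and on log2(CPM + 0.5). Chance flags about 1 in 20 groups, and 31 values stood apart in 316 groups tested.

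The total of FGF1 mouse 17, 1243280 counts, lay far below those of the other FGF1 libraries. In the same mouse, Spry1 (8.15 CPM), Nes (97.0), Col23a1 (10.6), Cfap45 (8.15) and Nqo1 (1.63) were lowest and Kcnj8 (10.6) was highest of the FGF1-treated mice.

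FGF1 mouse 22 stood apart for 13 genes. It was lowest for the ERK feedback genes Dusp6 (24.3 CPM) and Spry4 (26.98), for Egr3 (4.42), and for Tubb6 (20.3), Lamp5 (15.3), Gch1 (7.36), Map3k6 (10.2), Ppp1r3g (0.384), Elovl1 (32.6), Ltv1 (24.9) and Syt15 (10.6). Sult1a1 was lowest there as well (7.55 CPM), while Slc2a4 was highest (5.35). For Dusp6, Egr3, Tubb6, Gch1, Map3k6, Elovl1, Ltv1 and Syt15 mouse 22 still lay above every vehicle-treated mouse. FGF1 mouse 26 was highest for Ptpn2 (43.7 CPM).

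Vehicle mouse 28, the library with the highest level of long against short genes, was lowest of the vehicle-treated mice for Fgfr1 (104 CPM) and Ptges (2.77) and highest for Lepr (12.6), Lgals3 (2.88), Pdgfra (110) and Aspa (35.1). Vehicle mouse 27 was highest for Fbln5 (62.5 CPM) and Cfap45 (11.9), vehicle mouse 29 was lowest for S100b (184), and vehicle mouse 30 was lowest for Adm (0.438).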

How the results depend on the processing

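The share of DEGs that were higher, 58.8% here, was 50.8% with DESeq2 size factors, 50.9% with DESeq2, 51.2% with quantile normalization and limma, 55.1% with upper-quartile factors and 52.9% in the length subset. It was 61.1% without vehicle mouse 28 and also without FGF1 mouse 17 and vehicle mouse 28. No scaling moved the median log2 FC of all genes by more than 0.05. Requiring at least 10 counts in every library of Day 1 left 1589 DEGs, 1022 higher and 567 lower (64.3% higher), and libraries thinned to the smallest total gave 1438, 858 higher and 580 lower. Without a threshold on the fold change, 6396 genes passed, 3322 higher and 3074 lower (51.9%), and with an absolute log2 FC above 1 there were 886, 556 higher and 330 lower (62.8%). With each mouse left out in turn, DEGs numbered 2335 to 3088, of which 1426 to 1824 were higher and 909 to 1264 were lower, the share higher was 57.5% to 61.1%, 136 to 146 of the genes given with values were called, and 478 to 561 genes of the lists were called.

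Of 157 genes given with values, 143 were called, and 121 of these kept their call in every one of the 25 alternatives that could test them. With libraries thinned to the smallest total, Spry1, Spry3, Nr4a3, Ptpn1, Myl9, Cfap45, Neu4, Nr5a1 and Rplp1 lost their calls. The log2 FC of Neu4 was -0.69 in that fit. The sign turned for Rplp1, which was called but lost its call in most alternatives, in the length subset (-0.29). It also turned for genes that were not called: in the length subset for Fgfr3 (-0.16), Lepr (0.23), Insr (0.088), Foxj1 (-0.46) and Cldn5 (-0.20), without FGF1 mouse 17 and vehicle mouse 28 for Fgfr3 (-0.057) and Lepr (0.0023), and with sample quality weights for Agrp (0.045). With 1 mouse left out, the log2 FC ran from -0.051 (without vehicle mouse 28) to 0.20 for Fgfr3, from -0.55 to 0.0037 (without vehicle mouse 28) for Lepr and from -0.32 to 0.35 (without vehicle mouse 27) for Agrp. The cause was not tested. No paired analysis was possible because the FGF1 and vehicle groups share no replicate numbers. Depth limits weakly expressed genes most in FGF1 mouse 17, where 3 counts correspond to 2.44 CPM.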
